A study of Mus musculus with 24 samples.

Results

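BV2 cells, an immortalised mouse microglial line, were compared after 72 h with interleukin-10 (IL-10, 50 ng/mL) and as controls, by sequencing of small RNA from the cells. The comparison took the 3 libraries labelled IL-10 and the 3 labelled control, 6 of the 24 libraries of the series, with all 1187 microRNA precursors that the count table lists. The other cell groups were given lipopolysaccharide (LPS, a bacterial Toll-like receptor ligand) at 100 ng/mL or the cytokine TGF-β at 50 ng/mL for the same time, and each of the 4 cell groups has a matching group of extracellular vesicles (EVs). All groups come from this 1 line, and the labels name no genotype, no vehicle for the controls and no separate cultures for the 3 libraries of a group, so p-values here reflect only how much these libraries vary, which may be technical variation.

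IL-10 is a cytokine that restrains inflammatory gene expression in macrophages and microglia, and its receptor signals mainly through the kinase JAK1 and the transcription factor STAT3. A microRNA is cut from a hairpin precursor, often from a primary transcript that carries several hairpins, and guides an Argonaute protein to messenger RNAs that pair with its seed, bases 2 to 8. MicroRNAs with the same seed form a family with largely shared targets.

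The mature sequences below belong to the precursors on which the results turn, and are grouped so that shared seeds can be read. They come from RefSeq (GRCm38.p6), are written 5′ to 3′ with the seed in capitals, and show the arm usually taken as the guide, since the counts do not separate the arms.
miR-21a-5p: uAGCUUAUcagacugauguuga
miR-342-3p: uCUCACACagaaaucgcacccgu
miR-222-3p: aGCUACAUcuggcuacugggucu
miR-221-3p: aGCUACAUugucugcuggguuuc
miR-146a-5p: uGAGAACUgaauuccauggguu
miR-146b-5p: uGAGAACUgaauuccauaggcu
let-7a-5p: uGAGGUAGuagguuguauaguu
let-7f-5p: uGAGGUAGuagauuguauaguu
let-7e-5p: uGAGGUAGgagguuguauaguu
miR-98-5p: uGAGGUAGuaaguuguauuguu
miR-92a-3p: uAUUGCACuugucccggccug
miR-92b-3p: uAUUGCACucgucccggccucc
miR-25-3p: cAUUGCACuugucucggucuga
miR-17-5p: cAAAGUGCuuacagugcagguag
miR-106b-5p: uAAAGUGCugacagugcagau
miR-19b-3p: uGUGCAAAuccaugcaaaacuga
miR-210-3p: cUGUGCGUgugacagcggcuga

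The 6 libraries held 288720 to 409969 counts, and 406 to 449 precursors had at least 1 count in a library. Of the 1187 precursors, 568 were at 0 in all 6 libraries, and 259 passed the filter on low counts and were tested. In the shallowest library a precursor at 0 could hold up to 0.00104% of the counts, and this limit covers counting error only, because PCR copies were not marked by molecular identifiers. Some myeloid precursors were present. mir-142a, a microRNA of blood-lineage cells, lay at 2334 to 4006 normalised CPM (counts scaled by library total and TMM normalisation factor) in the 6 libraries, and mir-223 lay at 203 to 302. Other members of the myeloid list were near 0, with 0 to 2 counts a library for mir-150, 0 to 1 for mir-142b and 6 to 8 for mir-338. The marker lists of several other cell types were near 0. The erythroid list (mir-451a, mir-144 and mir-486a among its 5 members) summed to 0 counts in every control library and to 0 to 4 in the IL-10 libraries, and the liver, muscle and epithelium lists each summed to at most 13 counts in a library. The fibroblast and stroma list was higher, at 151 to 279 counts in controls and 251 to 299 after IL-10, as were the neuron and endothelium lists, which are described with the other lists.

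After IL-10, 20 precursors differed from control, 7.72% of those tested, with edgeR's quasi-likelihood test at an adjusted p under 0.05. Of these, 14 (5.41% of the tested precursors) were higher and 6 (2.32%) were lower, and they correspond to 17 names when numbered copies of a precursor are counted once. The largest increases were those of mir-21a, mir-342 and mir-362, at log2 1.90, 1.54 and 1.49, and the largest decreases those of mir-210 and of the mir-92a copies, between log2 -1.12 and -0.91. The 3 IL-10 libraries lay outside the range of the 3 control libraries for 83 precursors, 32% of those tested, of which 58 (22.4%) were higher and 25 (9.65%) lower. The median log2 change over the 259 precursors was 0.05. The split between directions depended on the scaling: with DESeq2's size factors 23 precursors were called, 13 higher and 10 lower, at a median of -0.02, and with library totals alone 29 were called, 11 higher and 18 lower, at a median of -0.17. The count was 5 without control library 1, 13 without control library 3, 7 without IL-10 library 2 and 9 without IL-10 library 3. mir-21a, mir-342, mir-222 and the mir-92a copies were called in every alternative analysis that tested them. In bulk RNA of this kind, a lower share of responding cells and a smaller change per cell cannot be told apart.

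**Figure D1:**
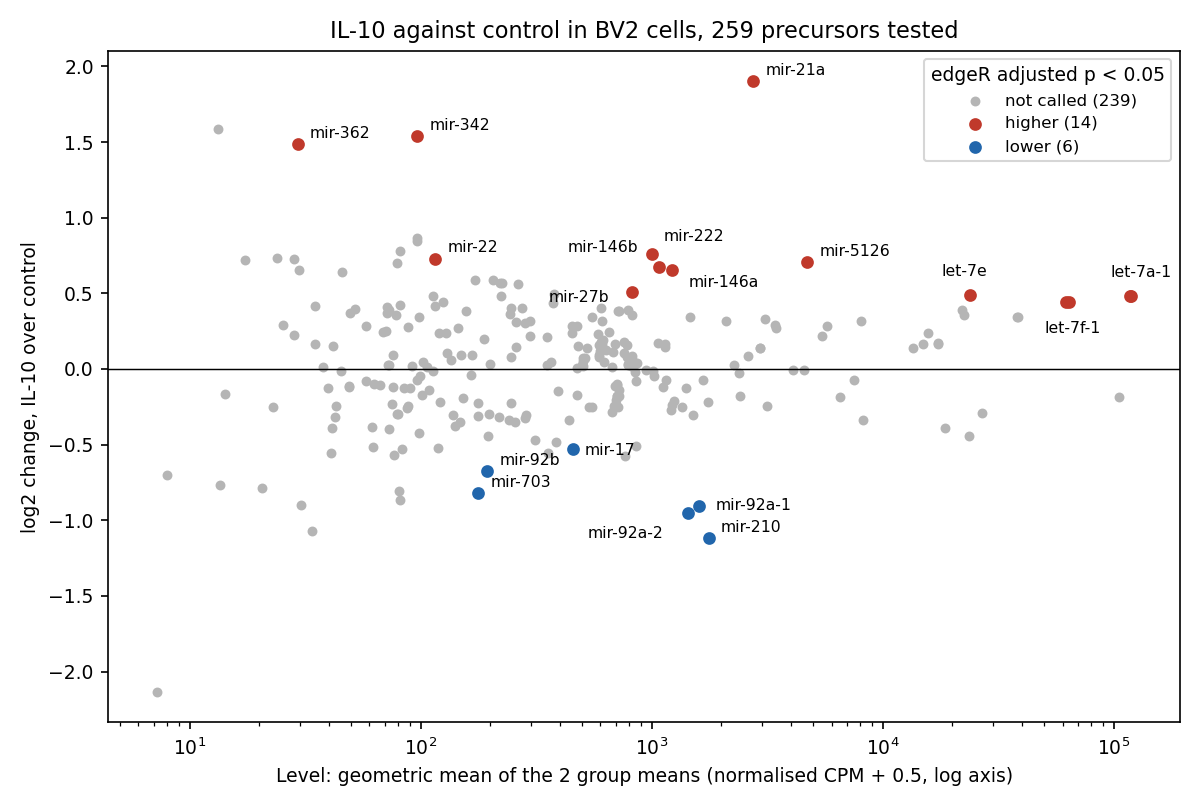
Log2 change (IL-10 over control, vertical) against level (geometric mean of the 2 group means of normalised CPM plus 0.5, log axis) for the 259 tested precursors; red and blue points are the 14 called higher and the 6 called lower, grey points were not called. Among the called precursors mir-21a is highest at a log2 change of 1.90, and the let-7 points lie at the right end, at a change of 0.44 to 0.49.

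mir-21a is processed from a primary transcript at the Vmp1 locus on chromosome 11, and transcription of its human counterpart is known to be driven by STAT3. Its level was 1207, 1508 and 1529.7 CPM in the control libraries and 5273, 5247 and 5347 CPM in the IL-10 libraries. Every IL-10 library exceeded every control library, and the IL-10 libraries differed from each other by less than the controls did. The increase was 3.74-fold (log2 1.90 ± 0.14 SE, n = 3 per group, edgeR adjusted p = 9.48e-10), the largest change with a call in the comparison.

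mir-342 lies in an intron of Evl on chromosome 12 and is a microRNA of myeloid and lymphoid cells. It was present at 49.4, 60.9 and 57.4 CPM in controls and at 169.7, 163 and 159 CPM after IL-10, with no overlap between the groups. These levels rest on 18 to 26 counts in the control libraries and 49 to 62 in the IL-10 libraries. The increase was 2.91-fold (log2 1.54 ± 0.22, edgeR adjusted p = 3.85e-05). mir-362, from a group of precursors in an intron of Clcn5 on the X chromosome, rested on fewer counts still, 5, 6 and 8 in controls against 21, 11 and 18 after IL-10. It was called (log2 1.49 ± 0.43, edgeR adjusted p = 0.0341), but lost the call in 9 of the 13 alternative analyses that could test it, among them every one that left out a library. Its neighbours mir-500, mir-501, mir-188 and mir-532 were not called, at log2 0.49, 0.38, -0.30 and 0.17. mir-22, which lies in the non-coding host gene Mir22hg on chromosome 11, was at 76.8, 79.6 and 112 CPM in controls and at 153, 139.7 and 148 CPM after IL-10. Its groups did not overlap and it was called (log2 0.73 ± 0.22, edgeR adjusted p = 0.0429), yet the call was lost in 13 of 14 alternative analyses, the weakest among the 20.

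mir-222 and mir-221 are neighbours on the X chromosome that share a seed and repress the cell-cycle inhibitor p27. mir-222 was at 727, 817 and 756 CPM in controls and at 1360.1, 1214 and 1325 CPM after IL-10, and the groups were well apart. It rose by log2 0.76 ± 0.13 (edgeR adjusted p = 0.000371). mir-221 was at 634, 646 and 783 CPM in controls and at 821, 968 and 916 CPM after IL-10. Its groups did not overlap either, but its change of log2 0.39 ± 0.14 was not called (edgeR adjusted p = 0.0694).

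mir-146a and mir-146b, from chromosomes 11 and 19, have the same seed and match at 20 of the 22 positions of their guide arms. They are induced through NF-kB and repress the Toll-like receptor adaptors IRAK1 and TRAF6. mir-146a was at 864, 1016 and 1046 CPM in controls and at 1478, 1384 and 1736 CPM after IL-10. mir-146b was at 784, 899 and 879.7 CPM in controls and at 1239.7, 1338 and 1519.8 CPM after IL-10. In both cases all 3 IL-10 libraries lay above all controls. The increases were of like size, log2 0.65 ± 0.15 for mir-146a (edgeR adjusted p = 0.0128) and log2 0.68 ± 0.15 for mir-146b (edgeR adjusted p = 0.00982). Both calls were lost without control library 1 and without IL-10 library 3, at adjusted p-values of at most 0.0715.

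Of 10 precursors known to respond to Toll-like receptor 4 and NF-kB signalling, 4 were tested, and the mir-146 pair were the 2 that rose. None fell, and over all tested precursors 5.41% rose and 2.32% fell. The median log2 change was 0.70 beside 0.05 over all tested precursors. mir-155, the best-known inflammatory microRNA of macrophages, was at 19.2, 18.7 and 27.2 CPM in controls and at 27.4, 29.9 and 49.4 CPM after IL-10. The groups just failed to overlap, on 7 to 18 counts per library, and its log2 change of 0.73 had a 95% interval from -0.09 to 1.55 (edgeR adjusted p = 0.243). mir-132, a CREB-responsive microRNA, had 1, 3 and 4 counts in controls and 5, 6 and 12 after IL-10, and its log2 change of 1.59 ± 0.65 was not called (edgeR adjusted p = 0.12). The untested members mir-212, mir-147, mir-187 and the 3 mir-9 precursors had at most 7 counts in any of the 6 libraries.

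The list linked to IL-10 and STAT3 had 5 tested members of 8. mir-21a and mir-146b rose, none fell, and the median log2 change was 0.68. Over all tested precursors 5.41% rose and 2.32% fell. The other tested members were mir-155 and the mir-24 copies, whose log2 change of 0.17 turned to -0.05 with library totals alone. mir-146b and mir-155 also belong to the NF-kB list above, so these lists are not separate evidence. mir-187, which IL-10 induces in human monocytes, was at 0 in all 6 libraries, and the mir-181b copies had 1 to 8 counts. The myeloid list had 8 tested members of 12, of which mir-342 and mir-146a rose and none fell, with a median of 0.49. The shares over all tested precursors were again 5.41% and 2.32%, and mir-146a is in the NF-kB list as well. mir-142a (log2 0.33, edgeR adjusted p = 0.181), mir-223 (0.08, 0.834) and the mir-181a copies (both 0.03, 0.972) were not called. All 8 myeloid changes were above 0 with the main scaling, but 6 were with DESeq2's size factors and 5 with library totals alone. Of the 259 tested precursors 147 were above 0 with the main scaling.

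**Figure D2:**
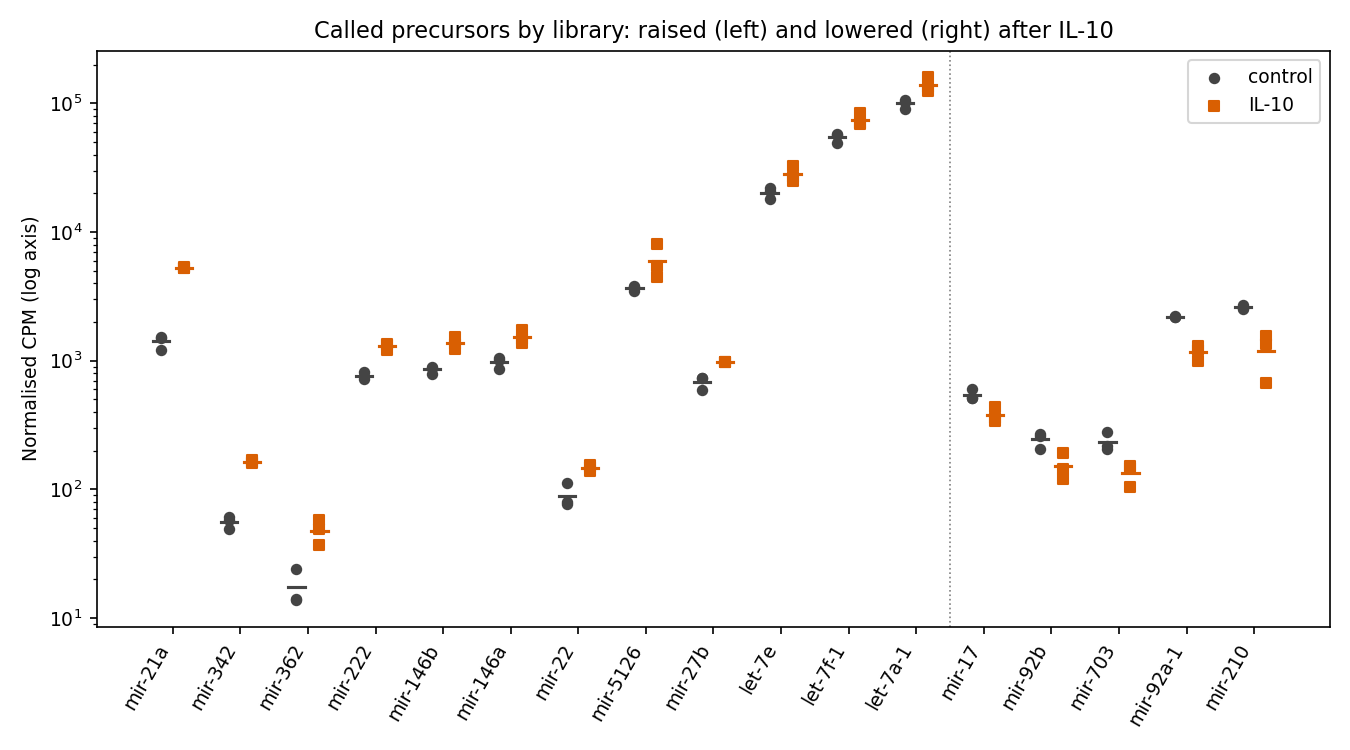
Normalised CPM (log axis) of the called precursors in the 3 control libraries (grey circles) and the 3 IL-10 libraries (orange squares), with a bar at each group mean and 1 copy shown of let-7a, let-7f and mir-92a; the dotted line separates those higher from those lower after IL-10. The groups do not overlap for any precursor shown, nor for 32% of all tested precursors. Those shown were chosen by the test on these same libraries, so the lack of overlap is not separate evidence. mir-21a moves from a mean of 1415 to 5289 CPM, and IL-10 library 2 lies lowest for mir-210, at 675 CPM.

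The let-7 family, which restrains proliferation and marks differentiated cells, was the most abundant in these cells. Its 13 let-7 precursors took 49.1%, 48.5% and 50.9% of the counts in the control libraries and 54.7%, 59.0% and 58.1% in the IL-10 libraries. The shares did not overlap and differed by 7.77 percentage points (49.5% ± 1.26 against 57.3% ± 2.28, SD, n = 3 per group), at the smallest p that an exact two-sided permutation test of 3 against 3 allows, 0.1. In the same libraries the share of mir-5099, an abundant atypical precursor, was 12.1%, 14.4% and 11.5% in controls and 10.8%, 10.0% and 8.08% after IL-10. Shares are relative to 1 total, and without mir-5099, mir-6236 and mir-6240 the let-7 difference was 6.58 points.

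Of the 14 tested members of the family, mir-98 included, 5 rose and none fell, at a median log2 change of 0.34. Over all tested precursors 5.41% rose, at a median of 0.05. The 5 were both copies of let-7a, both copies of let-7f, and let-7e. let-7a-1 was at 90793, 107258 and 103202 CPM in controls and at 125732, 160769 and 134317 CPM after IL-10 (log2 0.48 ± 0.13, edgeR adjusted p = 0.0295). let-7e, in an intron of Spaca6 on chromosome 17, was at 17920.0, 21847 and 20684 CPM in controls and at 25111, 32889.7 and 27002 CPM after IL-10 (log2 0.49 ± 0.14, edgeR adjusted p = 0.0339). IL-10 library 2 was the highest in each case, and no IL-10 library fell into the range of the controls. let-7f-1 rose by log2 0.44 ± 0.13 (edgeR adjusted p = 0.0386).

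The copies let-7a-1 and let-7a-2 give the same guide, and their counts kept a ratio of 1.01 in all 6 libraries, so they share reads and are not separate evidence. The let-7f copies kept a ratio of 1.02 to 1.04 and are not separate evidence either. The guides of let-7a, let-7f, let-7e and let-7c differ from each other by few bases, let-7a matching each of the others at 21 of 22 positions, and reads with a sequencing error could be moved between them by the authors' counting. The 9 members that were not called had log2 changes of 0.35 (the let-7c copies) down to 0.02 (mir-98). mir-98, which shares the let-7 seed and lies beside let-7f-2 in an intron of Huwe1, was at 1955, 2414 and 2385 CPM in controls and at 2137, 2555 and 2178 CPM after IL-10. Those ranges overlapped, and the 95% interval of its log2 change ran from -0.27 to 0.32. All 14 changes were above 0 with the main scaling, 13 with DESeq2's size factors and 11 with library totals alone. With the main scaling 147 of the 259 tested precursors were above 0. mir-1961, which RefSeq lists with the same seed, had 4, 8 and 4 counts in controls and 1, 2 and 0 after IL-10 (log2 -2.13 ± 0.90, edgeR adjusted p = 0.129). The calls of let-7a, let-7e and let-7f held under every alternative that kept all libraries, and were lost without control library 1 or 3 and without IL-10 library 2 or 3. Their size depended on the scaling, at log2 0.26 for let-7a-1, 0.27 for let-7e and 0.22 for let-7f-1 with library totals alone.

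**Figure D3:**
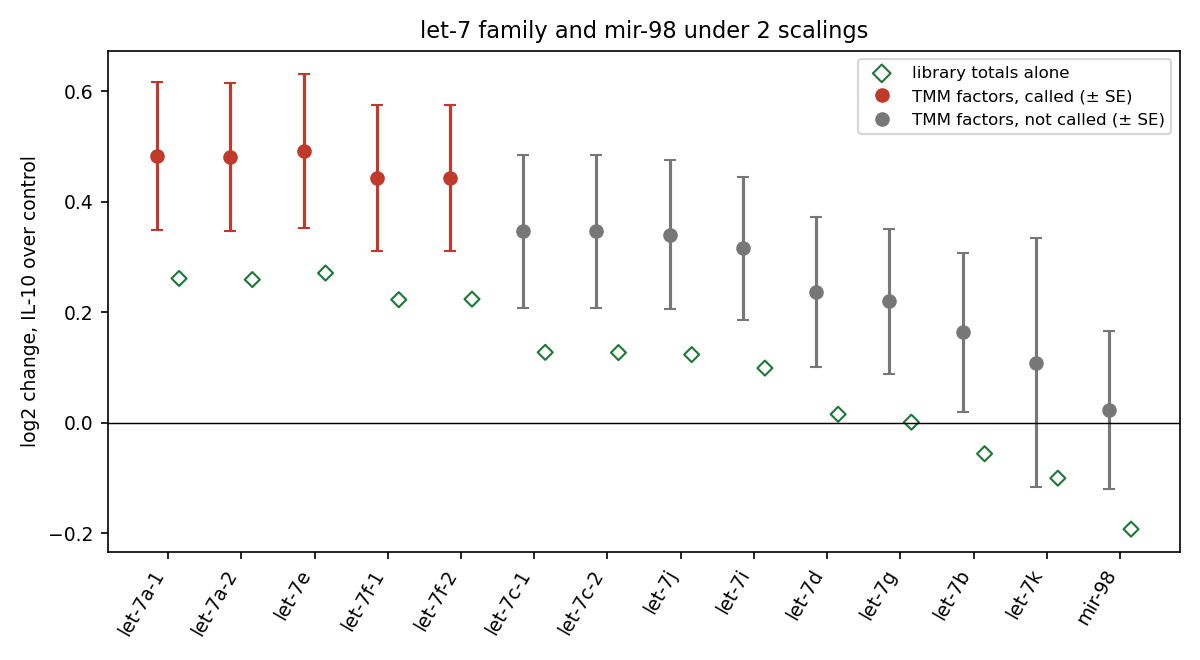
Log2 change (IL-10 over control) of the 14 tested let-7 and mir-98 precursors, as filled circles with SE under TMM factors (red called, grey not called) and as open diamonds with library totals alone. Every circle lies above 0, from 0.02 to 0.49, while the diamonds of let-7b, let-7k and mir-98 lie below 0, at -0.06, -0.10 and -0.19.

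let-7 microRNAs have been reported to bind Il10 mRNA, as have mir-98, mir-106a, mir-27a and mir-466l. That list of 15 had 14 tested members, of which 5 rose and none fell, with a median of 0.35, but 12 of its members are let-7 precursors or mir-98. The 5 are the let-7 calls given above, and 5.41% of all tested precursors rose. Of the members outside that family, mir-106a had a log2 change of -0.34 (edgeR adjusted p = 0.219) and mir-27a of 0.38 (0.0925), and mir-466l had at most 3 counts in a library. Il10 mRNA itself was not measured.

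The clearest decreases were those of the mir-92a copies, members of the miR-17-92 cluster on chromosome 14 and of its paralogue on the X chromosome, both known for promoting proliferation. mir-92a-1 was at 2175, 2208 and 2192 CPM in controls and at 1299.9, 988 and 1218 CPM after IL-10. mir-92a-2 was at 1972, 2037 and 1980.1 CPM in controls and at 1119, 888 and 1084 CPM after IL-10. All IL-10 libraries lay well below all controls, and IL-10 library 2 was the lowest. The changes were log2 -0.91 ± 0.13 (edgeR adjusted p = 5.3e-05) and log2 -0.95 ± 0.13 (edgeR adjusted p = 3.81e-05), a decrease of 1.87-fold and 1.94-fold. Both copies give one guide, and their counts kept a ratio of 1.08 to 1.16, so they are close to 1 measurement.

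mir-92b, from chromosome 3, matches mir-92a at 19 of 21 guide positions and fell as well. It was at 258, 269 and 206 CPM in controls and at 145, 119.8 and 192 CPM after IL-10, without overlap (log2 -0.68 ± 0.20, edgeR adjusted p = 0.0341). The call was lost without control library 1 or 2 and without IL-10 library 1 or 2. mir-25 has the same seed, matches mir-92a at 18 of 21 positions and was the most abundant of the seed family. It was at 11250.1, 13510.3 and 13670.4 CPM in controls and at 13735, 15581 and 13039 CPM after IL-10, ranges that overlapped. Its log2 change of 0.14 had a 95% interval from -0.14 to 0.42, which does not reach the decrease of the mir-92a copies, and was -0.08 with library totals alone. mir-32, on 9 to 17 counts per library, had a log2 change of 0.16 (edgeR adjusted p = 0.835), and mir-363 and mir-367 were at 0 in all 6 libraries.

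As a description of the same counts without scaling, the mir-92a copies made up 26.4%, 23.5% and 23.1% of the counts of the family in the control libraries and 14.8%, 10.6% and 14.8% in the IL-10 libraries. mir-25 holds most of the other counts of the family, so these shares restate the values above and are not separate evidence. The family as a whole took 1.98%, 1.88% and 2.07% of a control library and 1.70%, 1.56% and 1.62% of an IL-10 library. Neither measure overlapped between the groups, and an exact two-sided permutation test gave 0.1 for each, the smallest p that 3 against 3 allows.

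Of the miR-17, miR-20, miR-93 and miR-106 precursors, whose seed is AAAGUGC, 1 of 5 tested fell and none rose. Their median log2 change was -0.34, and over all tested precursors 2.32% fell and 5.41% rose. mir-17, which represses the cell-cycle inhibitor p21, was at 606, 518 and 514 CPM in controls and at 438, 356 and 340.2 CPM after IL-10. The groups did not overlap (log2 -0.53 ± 0.14, edgeR adjusted p = 0.0247), and the call was lost without control library 1 and without IL-10 library 2 or 3. mir-106b was at 491, 436 and 429 CPM in controls and at 342, 363 and 269 CPM after IL-10, again without overlap, and its change of log2 -0.48 ± 0.15 lay just outside the threshold (edgeR adjusted p = 0.0528). mir-106a (log2 -0.34), mir-20a (-0.24) and mir-93 (-0.02) were not called, and mir-20b had 1 count over the 6 libraries.

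Hairpins of one transcript differed in their calls. Along the miR-17-92 cluster, mir-17 and mir-92a-1 fell, while mir-18a (log2 -0.23), mir-20a (-0.24), mir-19a (0.16) and mir-19b-1 (0.15) were not called. mir-19b-1, the nearest neighbour of mir-92a-1, was at 916, 1164 and 1179 CPM in controls and at 1100.1, 1374 and 1141 CPM after IL-10. The 95% interval of its log2 change, -0.17 to 0.46, does not meet that of mir-92a-1, -1.18 to -0.63. In the X-linked paralogue mir-92a-2 fell, mir-106a and mir-19b-2 were at log2 -0.34 and 0.17 without a call, and mir-18b and mir-363 were at 0. The mir-19b copies kept a count ratio of 0.98 to 1.04 and, like the mir-92a copies, are close to 1 measurement. The counts therefore do not show from which transcript the reads of these copies came. In the cluster within Mcm7 on chromosome 5, mir-106b, mir-93 and mir-25 were at -0.48, -0.02 and 0.14, none called. The differences between hairpins of a transcript were not themselves tested, and the mir-19 changes were -0.05 to -0.07 with library totals alone.

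**Figure D4:**
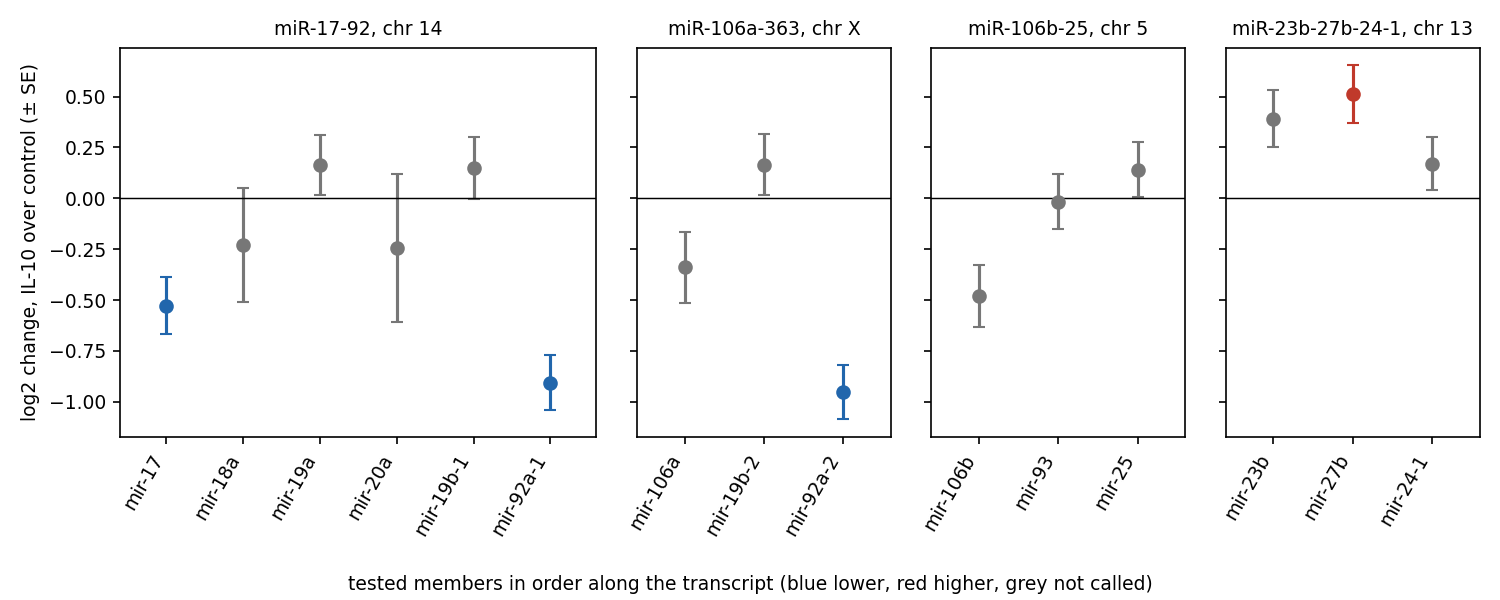
Log2 change (IL-10 over control, ± SE) of the tested precursors of 4 clusters, in their order along the transcript; blue was called lower, red called higher and grey not called. In the miR-17-92 cluster mir-17 and mir-92a-1 lie at -0.53 and -0.91 while mir-19a and mir-19b-1 between them lie at 0.16 and 0.15.

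mir-27b, a regulator of lipid metabolism, comes from the miR-23b cluster on chromosome 13. It was at 738, 595 and 729 CPM in controls and at 985, 975 and 974 CPM after IL-10, without overlap (log2 0.51 ± 0.14, edgeR adjusted p = 0.0295). This call was lost in 11 of 15 alternative analyses, among them every one that left out a library, and the change was log2 0.29 with library totals alone. Its cluster partners were not called, mir-23b at log2 0.39 (edgeR adjusted p = 0.0816) and mir-24-1 at 0.17. Over the 2 miR-23/27/24 clusters 1 of 6 precursors rose and none fell, at a median of 0.37, where 5.41% of all tested precursors rose. All 6 changes were above 0 with TMM and size factors but 4 with library totals alone. With TMM 147 of the 259 tested precursors were above 0.

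mir-210, the microRNA most closely tied to hypoxia and a direct target of the factor HIF-1, was at 2721, 2503 and 2582 CPM in controls. After IL-10 it was at 1559.8, 675 and 1341 CPM, all below the controls, with library 2 well below the other IL-10 libraries. It fell 2.17-fold (log2 -1.12 ± 0.28, edgeR adjusted p = 0.0201). The call was lost under the DESeq2 Wald test and a robust prior, at an adjusted p of up to 0.129, and without control library 1 or IL-10 library 2.

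Besides these, 2 little-studied precursors were called. mir-5126, whose listed sequence is nearly all G and C, was at 3486, 3721 and 3833 CPM in controls and at 4513, 8055 and 5456 CPM after IL-10. IL-10 library 2 lay apart from the other libraries there, and the call (log2 0.71 ± 0.18, edgeR adjusted p = 0.0178) was lost without it, without control library 1 and without control library 2; with library totals alone the change was log2 0.47. The list of precursors known to overlap or resemble other non-coding RNA, to which mir-5126 belongs, had 9 tested members. Of these mir-5126 alone rose and none fell, at a median of -0.17, and of all tested precursors 5.41% rose and 2.32% fell. mir-703 was at 206, 279 and 218 CPM in controls and at 151, 146 and 104 CPM after IL-10, without overlap, and fell by log2 0.82 (SE 0.22, edgeR adjusted p = 0.0247), a call lost without control library 1 or 2 and without IL-10 library 2 or 3.

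Just outside the threshold stood mir-700 (log2 -0.47, edgeR adjusted p = 0.0511), mir-106b, mir-326 (-0.57, 0.0613), mir-511 (0.87, 0.0613) and mir-182 (0.56, 0.0643). mir-700 and mir-106b were called in most alternative analyses. mir-511 is hosted by an intron of Mrc1, which encodes the mannose receptor of alternatively activated macrophages. It was at 57.6, 96 and 57.4 CPM in controls and at 129, 143 and 121 CPM after IL-10, with no overlap. It belongs to the list of precursors linked to alternative activation, of whose 8 tested members none was called, at a median log2 change of 0.02. Over all tested precursors 7.72% were called, at a median of 0.05, so a list of 8 without a call is near that share.

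No member was called in 7 further lists with tested members from microRNA families and clusters: miR-29 (4 tested, median log2 change 0.21), miR-15/16 (6, 0.14), miR-181 (2, 0.03), miR-30 (6, 0.12), miR-26 (3, -0.07), miR-148 (1, -0.12) and the mir-322 cluster (4, 0.26). The 4 tested hairpins miR-18 and miR-19 of the clusters above also gave none (median 0.16). Over all tested precursors 7.72% were called, a share at which lists this small can hold none. In the let-7 clusters with miR-99 and miR-125, 5 precursors were tested and let-7e and let-7a-2 rose, at a median of 0.35. The share that rose over all tested precursors was 5.41%. mir-125a beside let-7e had 1 count over the 6 libraries. Of the marker lists, fibroblast and stroma had 3 tested members of 7, the mir-199 precursors. None was called, at log2 0.57 to 0.59 (edgeR adjusted p-values of 0.0925 to 0.108). All 3 had every IL-10 library above every control, as did 22.4% of all tested precursors. Among them mir-199a-1 and mir-199a-2 are numbered copies. mir-214, mir-143 and the mir-145 precursors had at most 3 counts in a library. The neuron list took 0.0202% to 0.0367% of the counts in controls and 0.0115% to 0.0209% after IL-10, mostly from the mir-128 precursors. These were at log2 -0.53 and -0.57, neither called. Its other tested member, mir-138-2, went the other way, at log2 0.72 (edgeR adjusted p = 0.496). The mir-124 precursors were at no more than 1 count. The endothelium list summed to 19 to 76 counts in controls and 28 to 40 after IL-10. The part of these marker lists in the results was not tested.

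The IL-10 libraries were also compared directly with the LPS and TGF-β libraries. IL-10 and LPS cells differed in 115 precursors, 44.4% of those tested, with 62 (23.9%) higher and 53 (20.5%) lower after IL-10. IL-10 and TGF-β cells differed in 38, 14.7% of those tested, with 21 (8.11%) higher and 17 (6.56%) lower after IL-10. Of the 20 precursors called against control, 16 differed between IL-10 and LPS. The IL-10 libraries that gave the 20 calls are also 1 side of this test, so that share cannot be set against the 44.4%. The 4 that were not called between IL-10 and LPS were mir-21a, mir-342, mir-22 and mir-362. The difference for mir-21a, at 5726, 5553 and 5945 CPM after LPS, was log2 -0.12 with a 95% interval from -0.40 to 0.16, and for mir-342, at 174, 190.4 and 196 CPM, it was -0.19 with an interval from -0.61 to 0.24. These intervals are narrow beside the increases over control.

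Of mir-146a, mir-146b, mir-155 and mir-132, the 4 tested members of the NF-kB-related list, 3 were lower after IL-10 than after LPS. None was higher, and over all tested precursors 20.5% were lower and 23.9% higher. mir-146a was at 52897, 44879 and 47383 CPM after LPS, and IL-10 differed from it by log2 -4.98 ± 0.17 (edgeR adjusted p = 1.58e-16). mir-146b differed by -3.82 and mir-155 by -3.33, while the difference of -0.73 ± 0.55 for mir-132 was not called (edgeR adjusted p = 0.335). mir-222, outside that list, differed by -1.52. The mir-92a copies moved apart as well: mir-92a-1 was at 3085, 3103 and 2749 CPM after LPS, above the controls, and IL-10 differed from LPS by -1.35 ± 0.14 (edgeR adjusted p = 4.22e-08). mir-210, lower than control after IL-10, was lower still after LPS, at 333, 539 and 163 CPM, so IL-10 cells held more of it (log2 1.81 ± 0.33, edgeR adjusted p = 0.000147). mir-511 was at 5.12, 25.4 and 32.7 CPM after LPS, below every control and every IL-10 library, and IL-10 differed from LPS by 2.64 ± 0.42 (edgeR adjusted p = 2.73e-05). The LPS libraries held 185400 to 233757 counts, so these mir-511 levels rest on few counts and the size of its difference is uncertain.

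Against TGF-β, 6 of the 20 differed, in a test that again used the IL-10 libraries that gave the 20 calls. mir-21a was at 652, 810.1 and 622 CPM after TGF-β and mir-222 at 370.4, 329.8 and 411 CPM, both below the controls. IL-10 exceeded TGF-β by log2 2.93 ± 0.15 for mir-21a (edgeR adjusted p = 4.32e-13), by 1.81 ± 0.14 for mir-222 and by 1.66 ± 0.23 for mir-342. The mir-92a copies and mir-703 were lower after IL-10 than after TGF-β, by -0.73 and -0.75 for the copies and -1.37 for mir-703. mir-146a, mir-146b and the called let-7 precursors did not pass the test against TGF-β, the log2 difference of let-7a-1 being 0.27 with an interval from -0.01 to 0.54. mir-210 did not pass it either. Its log2 change from control to TGF-β was -1.88 ± 0.30 (edgeR adjusted p = 0.000111), so it was lower than control after all 3 treatments.

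**Figure D5:**
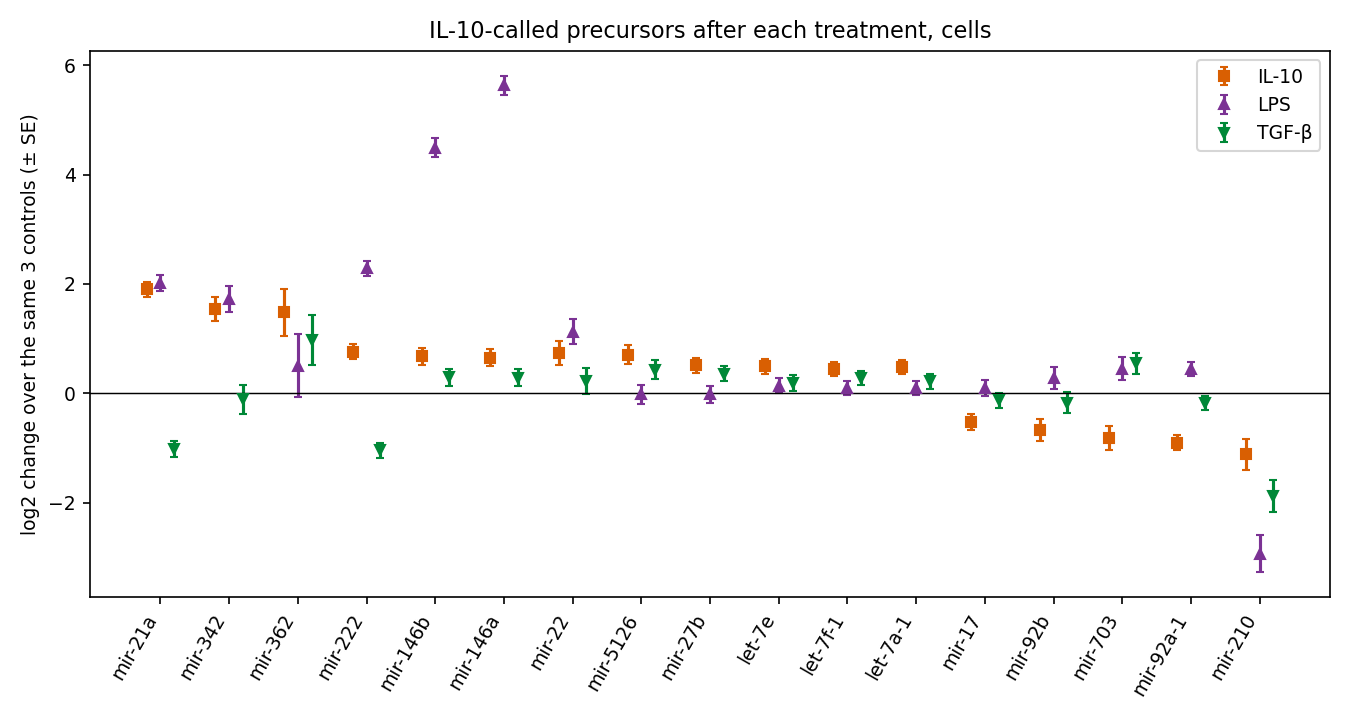
Log2 change over the same 3 control libraries (± SE) after IL-10 (orange squares), LPS (purple triangles) and TGF-β (green triangles) for the precursors called after IL-10, with 1 copy shown of let-7a, let-7f and mir-92a. The 3 sets of values share their controls; IL-10 and LPS lie close together for mir-21a, at 1.90 and 2.02, and far apart for mir-146a, at 0.65 and 5.63.

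In the EVs of the same treatment groups no precursor was called between IL-10 and control among 71 tested, 0% of them (edgeR, 5 at an unadjusted p under 0.05; DESeq2's Wald test also called 0, with 7 under 0.05). These libraries held 15402 to 18047 counts, and IL-10 EV library 1 stood apart, with let-7 at 9.33% of its counts against 2.51% and 2.81% in the other IL-10 libraries; without it the count of calls was again 0. mir-21a had 2, 5 and 10 counts in control EVs and 17, 1 and 5 in IL-10 EVs, and its log2 change of 0.28 had a 95% interval from -1.62 to 2.18, so a change as large as in the cells was not detectable at this depth. The let-7a-1 change in EVs was 0.13, with an interval from -0.44 to 0.70.

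A test of whether the IL-10 effect differed between EVs and cells gave 0 calls among 280 precursors, 0% of them, with edgeR (36 at an unadjusted p under 0.05), and DESeq2's Wald test gave 4, with 48 under 0.05. mir-342 stood first with edgeR (adjusted p = 0.0676). It had 1, 4 and 6 counts in control EVs and none in the 3 IL-10 EV libraries, against its increase in cells, and was called for this difference with DESeq2's size factors, without the filter on low counts, under the Wald test and without control EV library 1.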

How the data were processed

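Per the labels' protocols, libraries came from a SMARTer small RNA kit with 18 cycles of PCR. Each deposited table gives raw counts, 1 whole number for each precursor and library, without normalisation. DESeq2 is named in the submitters' processing notes, while aligner, annotation, build and filters were not given in the sources used here. Column names give treatment and compartment, which placed each column in its group; their numbers match no sample title. The control columns are the same in the tables of a compartment and were used once. Replicate libraries differed by more than sampling noise (chi-square over degrees of freedom 4.53 to 15.2).

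Counts were fitted with edgeR 4.0.16 in R 4.3.3: TMM factors (0.885 to 1.26 in the 6 libraries), filterByExpr with a minimum count of 10, and the two-sided quasi-likelihood F test on the 12 cell libraries (8 residual degrees of freedom), the 12 EV libraries, or all 24 for EVs against cells (16). P-values were adjusted by Benjamini-Hochberg over all precursors tested, and those under 0.05 were called. SEs come from the F statistic, and intervals are 95%. Alternatives were library totals alone, size factors and the Wald test of DESeq2 1.42.0, no filter, a minimum mean of 50 counts, a robust prior, only the groups compared, numbered copies summed, 3 abundant atypical precursors left out, and each library left out. The procedure was tested on simulated data. Members, lists and tests were chosen with earlier results of these data known. Named precursors were all those called, the 5 next by p, and members of the main lists; mir-1961, the neighbours of mir-362 and the leading precursors of the other comparisons were added beside them. Sequences and neighbours come from RefSeq GRCm38.p6 (1032 of 1187 precursors matched by symbol, 185 of the 259 tested), and host genes from a mouse gene annotation of that build, used for names only.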

Additional observations from a re-analysis of the deposited data

How the results depend on the processing

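No paired analysis was possible because the labels give no replicate numbers and the column numbers match no sample. Of the 20 calls, 5 held in every alternative that tested them, 16 in every one that kept all libraries, and none changed direction. The 20 calls became 18 to 29 with all libraries and 5 to 21 with 1 left out. IL-10 against LPS gave 105 to 124 calls with all libraries and 82 to 91 with 1 left out, against TGF-β 35 to 37 and 27 to 37, and EVs 0 throughout. The test of EVs against cells gave 2 calls with DESeq2's size factors, 4 without the filter, 4 with the Wald test and 0 to 1 with a library left out. The let-7 difference was 6.90 to 9.06 points with 1 library left out and 6.58 without mir-5099, mir-6236 and mir-6240. With library totals alone the median log2 change over all tested precursors moved from 0.05 to -0.17. Small log2 changes without a call changed sign, and the cause was not tested. With library totals they were -0.051 (mir-24-1), -0.052 (mir-24-2), -0.051 (mir-19a), -0.048 (mir-19b-2), -0.068 (mir-19b-1), -0.054 (mir-32), -0.056 (let-7b), -0.077 (mir-25), -0.10 (let-7k), -0.12 (mir-223), -0.19 (mir-98) and -0.18 (mir-181a-1, mir-181a-2). With size factors mir-98, mir-181a-1 and mir-181a-2 were at -0.039, -0.037 and -0.037; without the filter they were at -0.072, -0.063 and -0.063, and mir-223 at -0.011. mir-98 was at -0.040 with the Wald test, -0.023 with a mean of at least 50 counts, and -0.051 with only the groups compared, where mir-181a-1 and mir-181a-2 were at -0.040. With copies summed, mir-98 was at -0.064, mir-181a-1 and mir-181a-2 at -0.062 and mir-223 at -0.0030. Without the 3 atypical precursors mir-98 was at -0.090, mir-181a-1 and mir-181a-2 at -0.077, mir-223 at -0.025 and let-7k at -0.0070. Leaving out 1 library gave -0.10 to 0.044 for mir-98, -0.26 to 0.45 for mir-181a-1, -0.24 to 0.43 for mir-181a-2, -0.087 to 0.18 for mir-223, -0.025 to 0.23 for let-7k, -0.15 to 0.48 for mir-32 and -0.15 to 0.0035 for mir-93. Depth limits the EV comparisons, at 15402 to 18047 counts a library, and precursors with few counts in the cells, such as mir-362, mir-132 and mir-155.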
